A study of Mus musculus with 20 samples.

Results

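Cells that take up lipoproteins or fatty acids must burn, store or return the lipid, and the 9 genes described here cover these steps. Abca1 and Abcg1 are pumps that export cholesterol. A secreted and a lysosomal lipase, Lpl and Lipa, release fatty acids and cholesterol from lipoproteins, and Fabp4 and Fabp5 carry fatty acids within the cell. Plin2 coats lipid droplets, and Nr1h3 and Pparg encode nuclear receptors that switch several of these genes on. They were picked by name, by matching mouse symbols to the Ensembl identifiers, and make up 9 of the 52783 genes in the deposited table.
66cl4 and 67NR are mouse mammary carcinoma lines of the 4T1 family, and 66cl4 tumours spread to the lungs whereas 67NR tumours do not. Female BALB/cJ mice aged 8 to 12 weeks, with an intact immune system, received 1000000 cells of 1 line in a mammary fat pad, and tumours were taken 21 to 26 days later. Each of 10 mice, 5 per line, gave 1 library of CD45+ cells and 1 of CD45- cells sorted from the dissociated tumour, so there were 4 groups of 5 libraries. CD45 marks leukocytes. The CD45- gate therefore holds the injected carcinoma cells together with fibroblasts, endothelial cells and other cells of the host. No mouse was treated, and none without a tumour was sequenced in the libraries used here.
Several of the 9 genes are controlled by these nuclear receptors. Nr1h3 encodes LXR-alpha, which oxysterols activate and which, with its partner RXR, turns on Abca1 and Abcg1 when a cell holds excess cholesterol. Pparg encodes PPAR-gamma, a fatty acid sensor that drives lipid storage and is best known from adipocytes and lipid-laden macrophages, where Fabp4, Lpl and Plin2 are among its targets. In tumours, macrophages that take up lipid, carcinoma cells that store it and capillary endothelium that passes it on can all express some of the 9 genes.
LXR and PPAR bind with RXR to repeats of AGGTCA, spaced by 4 bases for LXR (DR4) and by 1 base for PPAR (DR1). The 250 bases before the start were read from RefSeq (GRCm38.p6) for the members it lists, which gave 8 promoters of 5 genes (Abca1, Lipa, Plin2, Nr1h3 and Pparg). Abcg1, Lpl, Fabp4 and Fabp5 were not matched. Both strands were searched for the pair of repeats with at most 2 mismatches over its 12 fixed bases. A DR1 match stood in 1 of the 8 member promoters, that of Plin2, against 3.24% of 32851 promoters. A DR4 match stood in 0 of the 8, against 2.57%, and with at most 3 mismatches in 1 of the 8, that of Abca1, against 18.5%. These windows are shown because Abca1 and Plin2 were the members whose 66cl4 CD45+ libraries all stood above the 67NR ones. Capitals mark the DR4 match of Abca1, at position −67 from the start, and the DR1 match of Plin2, at position −225. Both match on the strand opposite to the one printed, and they read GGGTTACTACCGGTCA and AGGTCAGGGGTCC there. The Abca1 window is chr4:53159896-53160145 and the Plin2 window chr4:86670060-86670309, both on the minus strand and written 5′ to 3′. A match describes letters and does not by itself show binding.
Abca1: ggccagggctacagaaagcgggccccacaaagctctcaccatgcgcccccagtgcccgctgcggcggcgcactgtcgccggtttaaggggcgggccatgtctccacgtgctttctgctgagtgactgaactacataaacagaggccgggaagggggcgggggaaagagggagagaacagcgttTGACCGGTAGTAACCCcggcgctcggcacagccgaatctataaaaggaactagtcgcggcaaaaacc
Plin2: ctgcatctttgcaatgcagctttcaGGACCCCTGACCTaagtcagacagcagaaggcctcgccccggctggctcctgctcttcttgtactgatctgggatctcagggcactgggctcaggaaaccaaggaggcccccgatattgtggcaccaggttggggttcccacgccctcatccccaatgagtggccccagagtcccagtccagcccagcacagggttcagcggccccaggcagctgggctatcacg

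Libraries held 12960000 to 28080314 estimated counts. The recorded cell type of 66cl4 animals 5 and 6 contradicts their titles. Titles were used, and Ptprc, the gene of CD45, was 33.6 to 1932 times higher in the CD45+ than in the CD45- library of all 10 animals. Summed marker genes showed what else differs between the groups. Among CD45+ libraries, the sum of neutrophil markers lay between 44190 and 125311 normalised counts for 66cl4 and between 7185 and 52320 for 67NR tumours. The sum of macrophage markers lay between 49457 and 76411 for 66cl4 and between 76727 and 117539 for 67NR tumours, without overlap. The single markers disagreed, by the ratio of mean levels, 66cl4 over 67NR. Adgre1 (0.459), C1qa (0.537), C1qb (0.533), C1qc (0.574) and Csf1r (0.872) were lower in 66cl4 tumours. Mrc1 (1.01) was level, and Cd68 (1.24) and Mertk (1.83) were higher. In CD45- cells, macrophage markers stood at 1.08% of their CD45+ level in 66cl4 and 2.54% in 67NR tumours. Epithelial markers there summed to 6057 to 6844 in 66cl4 against 125 to 391 in 67NR tumours, but the single markers split. By the ratio of means in CD45- cells, Krt8 (86.9), Krt18 (19.6) and Krt14 (2.90) were higher in 66cl4. Cdh1 (0.632), Epcam (0.368) and Krt5 (0.210) were lower. In these bulk samples, fewer cells of a type and less RNA per cell cannot be told apart.

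All 9 genes passed the filter on low counts in every comparison. A gene was called when edgeR gave an adjusted p under 0.05 and the absolute log2 fold change exceeded 1. Levels are normalised counts, that is estimated counts divided by the size factor of the library. In CD45+ cells, 1 member was called higher in 66cl4 (Abca1) and 2 lower (Fabp4 and Pparg), where 5.01% and 6.82% of 14676 tested genes were called. In CD45- cells, 2 members were higher in 66cl4 (Plin2 and Fabp5) and 5 lower (Abca1, Abcg1, Lpl, Fabp4 and Pparg), against 13.2% and 18.9% of 14844 genes. The libraries of the tumours did not overlap for 3 members in CD45+ cells, where this held for 15.1% of tested genes, and for 8 members in CD45- cells, where it held for 52.9%. The median log2 fold change of the 9 members was −0.13 in CD45+ cells, where that of all tested genes was 0.01, and −1.14 in CD45- cells, where that of all genes was −0.01.

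**Figure D1:**
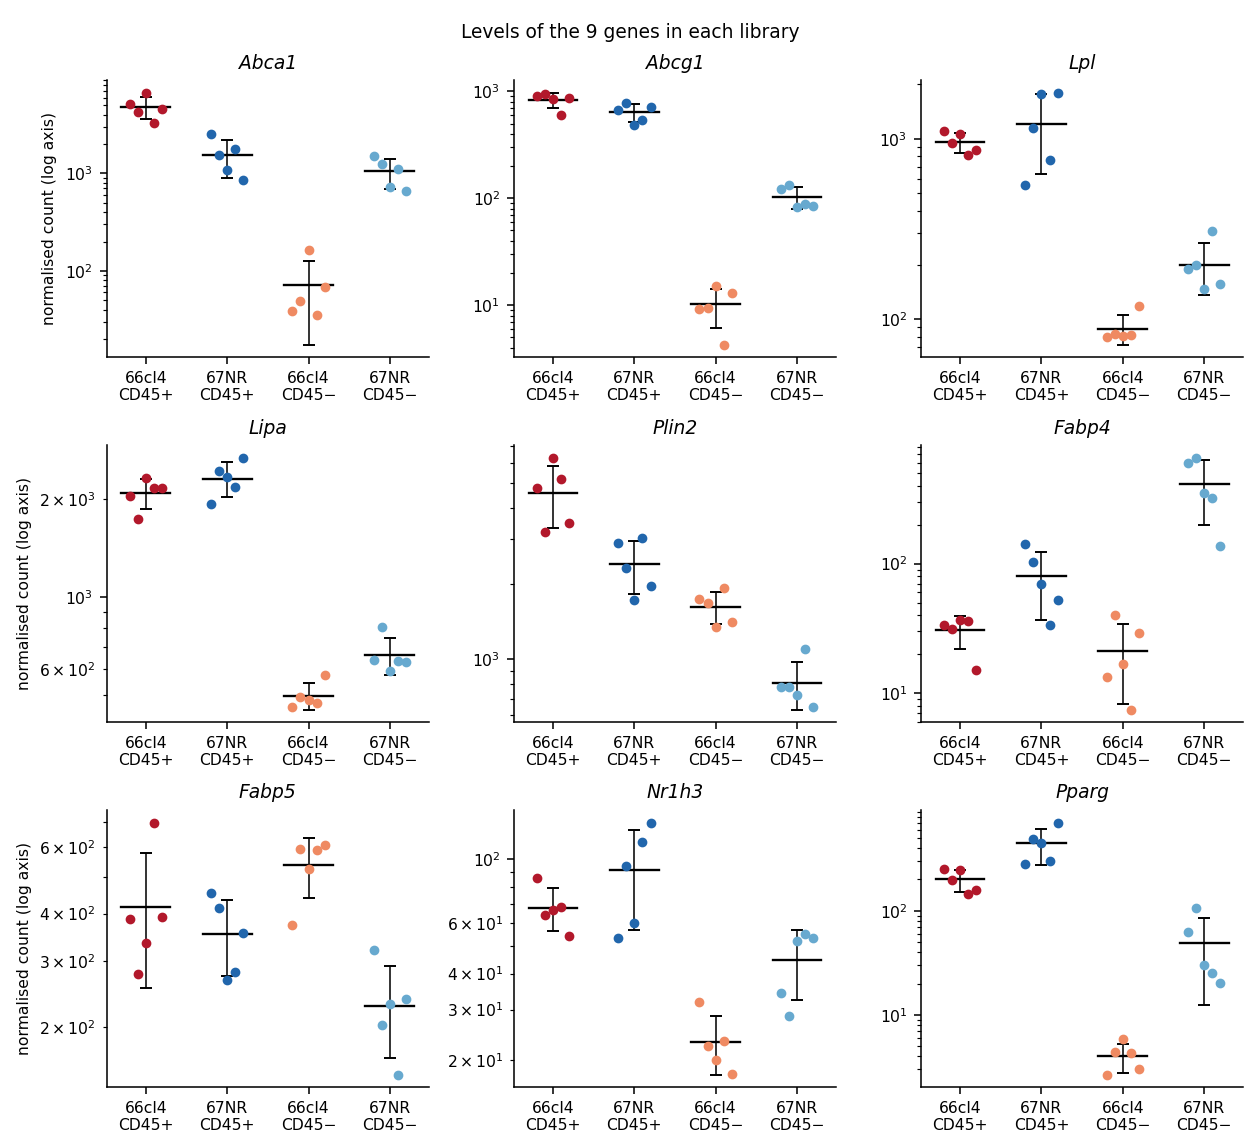
Normalised counts (log axis) of the 9 genes in each of the 20 libraries; each point is 1 library, and the bar and whiskers are the mean and SD of the 5 libraries of a group. Abca1, Abcg1 and Pparg have their lowest levels in 66cl4 CD45- cells, with means of 71.3, 10.2 and 4.02.

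**Figure D2:**
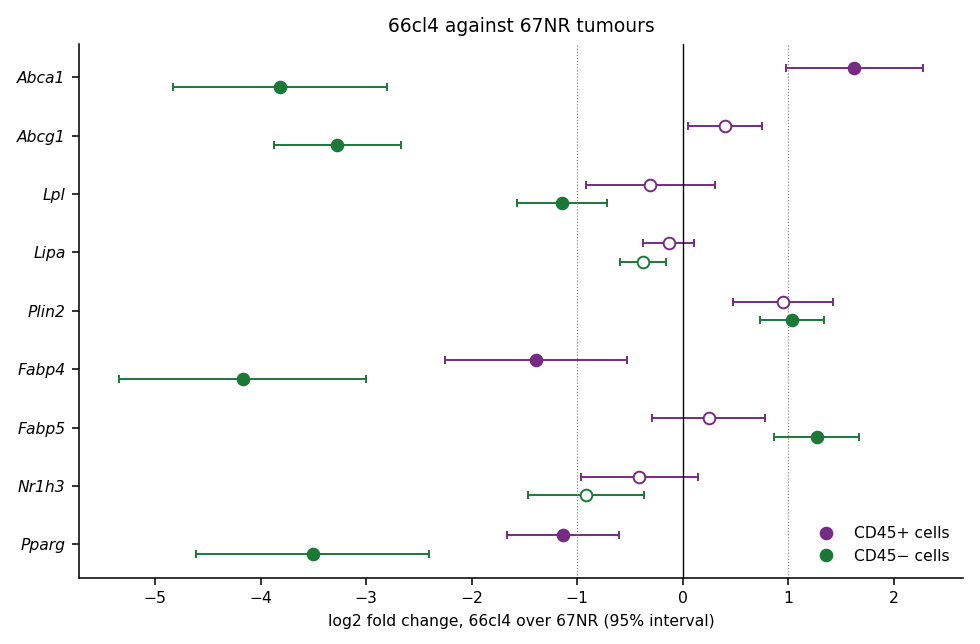
log2 fold change of 66cl4 over 67NR with its 95% interval from edgeR, for CD45+ cells (purple) and CD45- cells (green); filled points passed both thresholds, open points did not, and dotted lines mark a log2 fold change of 1 in either direction. Abca1 lies to the right in CD45+ cells (1.63) and far to the left in CD45- cells (−3.82).

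Set beside the gates, 7 members were called higher in CD45+ than in CD45- cells of 66cl4 tumours and 0 lower, against 23.9% and 20.5% of 14916 genes. At an unadjusted p under 0.05, and with DESeq2, 0 members were lower as well. In 67NR tumours 6 were called higher and 1 lower, Fabp4, against 20.2% and 19.6% of 15063 genes. The test of whether the tumour difference itself differs between the gates (interaction, adjusted p under 0.05) called 4 members with a positive sign, that is more toward 66cl4 in CD45+ than in CD45- cells, and 1 with a negative sign, against 21.9% and 21.2% of 16453 genes. The gates did not overlap for 7 members in 66cl4 and 5 members in 67NR tumours, where this held for 61.4% and 55.5% of tested genes. These comparisons share libraries and are not independent of one another.

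Of the cholesterol exporters, Abca1 was higher in CD45+ and lower in CD45- cells of 66cl4 tumours, and Abcg1 was lower in the CD45- cells. Abca1 (ENSMUSG00000015243) moves cholesterol to lipid-poor apolipoprotein A-I at the plasma membrane. Its level was 5168, 4314, 6706, 3325 and 4623 in the 5 libraries of 66cl4 CD45+ cells, and 2535, 1554, 1077, 1799 and 850 in those of 67NR CD45+ cells. The lowest 66cl4 library stood above the highest 67NR library. The log2 fold change was 1.63 (SE 0.30, adjusted p = 0.00307, edgeR), and in the alternatives tried it ranged from 1.46 to 1.89 and was called in 17 of 17.
In CD45- cells the order turned round. The Abca1 level was 38.5, 49.3, 165, 35.1 and 68.9 in 66cl4 and 1508, 1241, 724, 1098 and 666 in 67NR CD45- cells. No 66cl4 library came near the 67NR range, and the log2 fold change was −3.82 (SE 0.45, adjusted p = 3.56e-05, edgeR). The highest 66cl4 value, 165 in animal 5, came from the library with the highest macrophage marker sum of that group, 1901 against 157 to 856 in the other four, and the part of these cells in it was not tested.
Within animals, the Abca1 level was 40.7 to 134 times higher in the CD45+ than in the CD45- library of 66cl4 tumours, but 1.25 to 1.68 times higher in 67NR tumours. It was higher in CD45+ cells in 5 of 5 animals of each line. In 67NR tumours the difference did not pass the test, which did not pair the gates of an animal (log2 fold change 0.58, 95% interval −0.11 to 1.27, adjusted p = 0.122, edgeR). Over the alternatives, which include the animal as a block, it ranged from 0.33 to 0.80, under the fold threshold in 16 of 16. The adjusted p there ranged from 0.00195 to 0.321 (edgeR or DESeq2), so the p-value depends on the test used. The mean Abca1 level of 67NR CD45- cells was 67.0% of that of CD45+ cells from the same tumours, whereas the summed markers of macrophages, monocytes, neutrophils, dendritic cells, T cells and B cells there stood at 1.36% (monocytes) to 5.82% (B cells) of theirs. In 66cl4 CD45- cells Abca1 stood at 1.48%, where those lists stood at 0.311% (neutrophils) to 1.67% (B cells). The part of leukocytes in the Abca1 level of either CD45- group was not tested. The interaction was the largest of the 9 members, with a log2 difference of 5.48 (SE 0.54, adjusted p = 1.65e-07, edgeR).
Abcg1 (ENSMUSG00000024030), which passes cholesterol on to HDL particles, shared the pattern in CD45- cells but not in CD45+ cells. Its level in CD45+ cells was 904, 948, 851, 607 and 871 in 66cl4 and 673, 783, 489, 538 and 719 in 67NR tumours. The 2 ranges overlapped, and the log2 fold change of 0.40 (95% interval 0.05 to 0.75) did not pass the test (adjusted p = 0.0988, edgeR). In CD45- cells it was 9.29, 9.35, 15.0, 4.25 and 12.98 in 66cl4 against 123, 134, 83.4, 89.1 and 83.9 in 67NR tumours, without overlap. The log2 fold change was −3.28 (SE 0.28, adjusted p = 1.64e-07, edgeR). CD45+ libraries exceeded the CD45- library of the same animal 56.8-fold to 143-fold in 66cl4 and 5.48-fold to 8.57-fold in 67NR tumours. Both gate differences were called (log2 fold change 6.30 and 2.64, adjusted p = 1.08e-09 and 3.01e-07, edgeR), and the interaction was 3.68 (SE 0.31, adjusted p = 1.15e-08, edgeR).

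**Figure D3:**
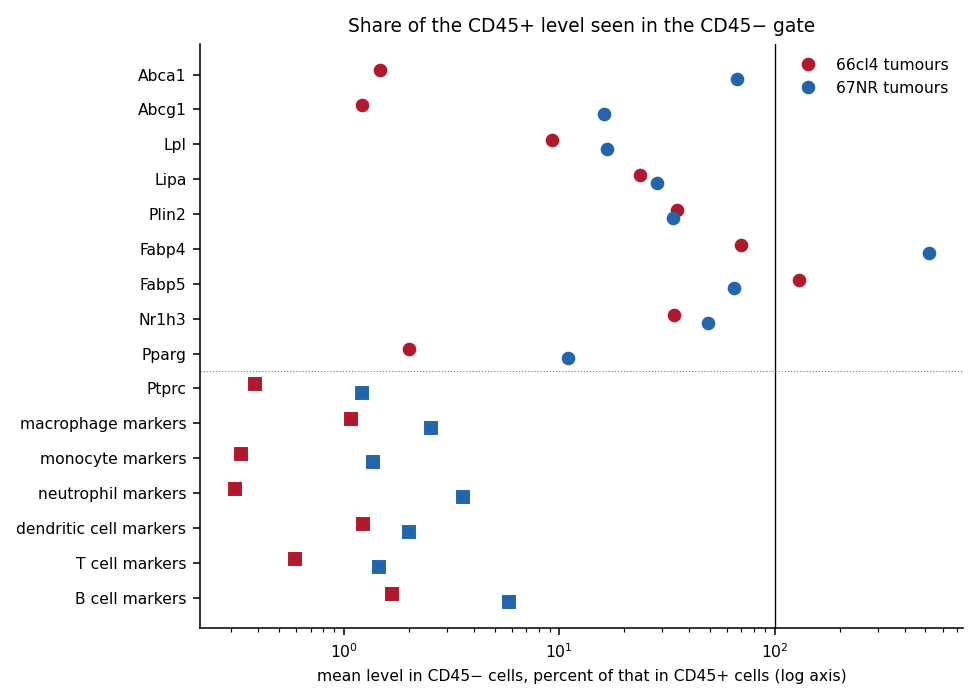
Mean level in CD45- cells as a percentage of that in CD45+ cells (log axis) for the 9 genes (circles) and for Ptprc and the summed markers of 6 leukocyte types (squares), in 66cl4 (red) and 67NR (blue) tumours; each point is a ratio of 2 group means over 5 libraries each and carries no error bar. In 67NR tumours Abca1 sits at 67.0% and the 6 marker sums at 1.36% to 5.82%. In 66cl4 tumours Abca1 sits at 1.48% and the sums at 0.311% to 1.67%. The part of leukocytes in the CD45- levels was not tested.

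The nuclear receptors behaved unlike each other. Nr1h3 (ENSMUSG00000002108), which encodes LXR-alpha, had overlapping levels in both kinds of CD45+ cells, 54.1 to 86.2 in 66cl4 (median 66.5) and 53.1 to 134 in 67NR (median 94.5). Its log2 fold change of −0.41 (95% interval −0.97 to 0.15) did not pass the test (adjusted p = 0.280, edgeR). In CD45- cells it ran from 17.97 to 31.9 in 66cl4 and from 28.5 to 54.7 in 67NR tumours. These ranges overlapped, and the log2 fold change of −0.92 (SE 0.26, adjusted p = 0.00593, edgeR) stayed short of the fold threshold, which it passed without the library of 66cl4 animal 3 (−1.03) or that of 67NR animal 4 (−1.05). Nr1h3 was higher in CD45+ cells within 5 of 5 animals of each line, 2.71-fold to 3.33-fold in 66cl4 and 1.16-fold to 3.32-fold in 67NR tumours. The 66cl4 difference was called (1.52, adjusted p = 2.48e-05, edgeR). The 67NR difference was also called (1.03, adjusted p = 0.00792), but with the animal as a block it was 0.998 and just under the threshold (adjusted p = 0.0101). It likewise fell under it, to 0.89 to 0.95, without the CD45- library of 67NR animal 1 or 4 or the CD45+ library of animal 6 or 7.
Pparg (ENSMUSG00000000440), which encodes PPAR-gamma, was lower in 66cl4 in both gates. Its level in CD45+ cells was 253, 196, 246, 146 and 160 in 66cl4 and 283, 490, 449, 302 and 703 in 67NR tumours. All 5 of the 67NR libraries stood above the 66cl4 range, and the log2 fold change was −1.14 (SE 0.24, adjusted p = 0.00651, edgeR). Without the 67NR library of animal 7, the highest, it was −0.94 and no longer past the fold threshold. That library also had the highest macrophage marker sum of its group (117539, against 76727 to 79645 in the others), and the part of this in the Pparg difference was not tested.
In 66cl4 CD45- cells Pparg was close to the limit of detection. Its level was 2.65, 4.36, 5.83, 4.25 and 2.99, which stands for 2 to 7 estimated counts a library, where 3 counts are the limit that a count of 0 allows (counting error only). The level in 67NR CD45- cells was 62.3, 107, 29.9, 25.0 and 20.5. The groups did not overlap (log2 fold change −3.51, SE 0.51, adjusted p = 3.52e-05, edgeR), though the 67NR libraries alone spread from 20.5 to 107, with animals 1 and 4 high. Within animals Pparg was 34.4 to 95.4 times higher in CD45+ cells of 66cl4 and 4.53 to 34.4 times higher in those of 67NR tumours. Both gate differences were called, at 5.52 and 3.17 on the log2 scale (adjusted p = 3.86e-09 and 8.34e-05, edgeR). The interaction was 2.36 (SE 0.61, adjusted p = 0.00425, edgeR), and it was 1.77 (adjusted p = 0.00842) without the CD45- library of 67NR animal 4, the highest.

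The lipases marked CD45+ cells of both tumours. Lpl (ENSMUSG00000015568) encodes lipoprotein lipase, a secreted enzyme that frees fatty acids from triglyceride-rich lipoproteins. In CD45+ cells its level was 1100, 952, 1063, 814 and 863 in 66cl4 and 553, 1149, 1773, 759 and 1796 in 67NR tumours. The 67NR libraries lay on both sides of the 66cl4 range, and no difference passed the test (log2 fold change −0.31, 95% interval −0.92 to 0.30, adjusted p = 0.471, edgeR). In CD45- cells it was 79.6, 82.3, 80.7, 81.8 and 118 in 66cl4 against 189, 200.3, 147, 307 and 156 in 67NR tumours. The ranges were apart, and Lpl was lower in 66cl4 by a log2 fold change of −1.14 (SE 0.20, adjusted p = 0.000164, edgeR). Without the library of 67NR animal 6, the highest, this was −0.94. CD45+ cells held 7.33 to 13.8 times the level of CD45- cells within 66cl4 animals and 2.47 to 12.1 times within 67NR animals, and both differences were called (3.41 and 2.59, adjusted p = 1.63e-09 and 4.43e-05, edgeR). The interaction of 0.83 (95% interval 0.03 to 1.62) missed the threshold (adjusted p = 0.0847, edgeR) and passed it without the CD45+ library of 67NR animal 5 (1.01, adjusted p = 0.0387) or 7 (1.01, adjusted p = 0.0337).
Lipa (ENSMUSG00000024781) encodes lysosomal acid lipase, which hydrolyses the cholesterol esters and triglycerides of ingested lipoproteins. It had the smallest tumour difference of the 9 members in either gate. Levels in CD45+ cells ran from 1739 to 2332 in 66cl4 and from 1934 to 2685 in 67NR tumours, with a log2 fold change of −0.13 (95% interval −0.37 to 0.11, adjusted p = 0.423, edgeR). In CD45- cells it ran from 458 to 577 and from 590 to 810. These ranges did not overlap, but the difference was small (−0.38, SE 0.10, adjusted p = 0.00437, edgeR) and under the fold threshold in 17 of 17 alternatives. Every animal had more Lipa in its CD45+ library, by 3.54-fold to 4.83-fold in 66cl4 and 3.01-fold to 4.26-fold in 67NR tumours, and both gate differences were called (2.05 and 1.81, adjusted p = 5.47e-09 and 9.89e-08, edgeR).

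**Figure D4:**
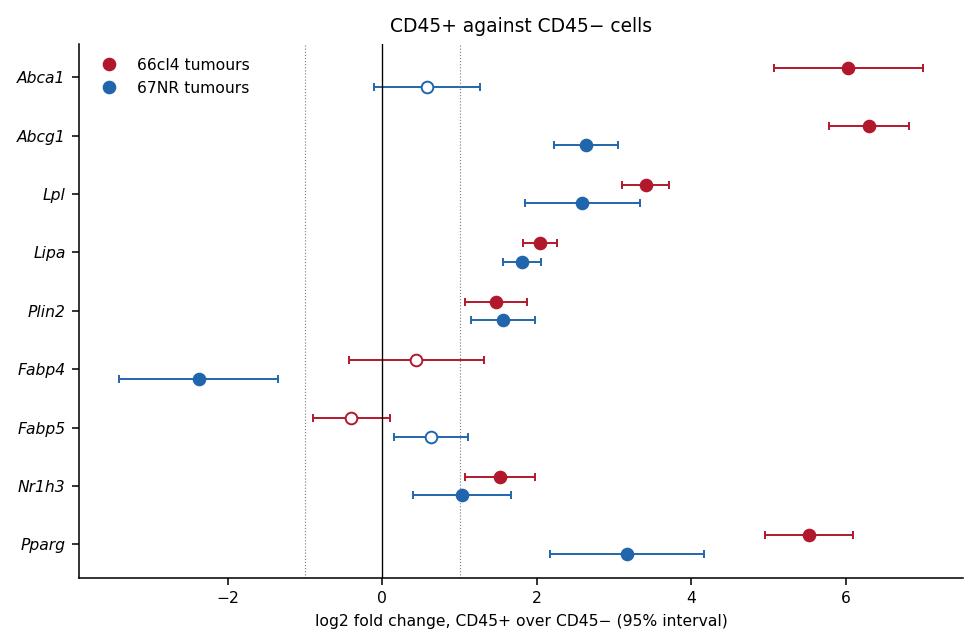
log2 fold change of CD45+ over CD45- cells with its 95% interval from edgeR, in 66cl4 (red) and 67NR (blue) tumours; filled points passed both thresholds, open points did not, and dotted lines mark a log2 fold change of 1 in either direction. Lipa, Plin2 and Nr1h3 lie close together in the 2 tumours, while Abca1 (6.03 and 0.58) and Fabp4 (0.44 and −2.38) lie apart.

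The fatty acid binding proteins, small carriers with like structures, differed between the tumours in opposite directions in CD45- cells. Fabp4 (ENSMUSG00000062515) is the form of adipocytes, macrophages and capillary endothelium. Its level was highest in a CD45- group, with 601, 656, 353, 322 and 137 in CD45- libraries of 67NR tumours. Those of 66cl4 tumours held 13.3, 39.9, 16.6, 7.44 and 28.9. The ranges were far apart (log2 fold change −4.17, SE 0.52, adjusted p = 4.82e-05, edgeR), the largest tumour difference among the 9 members in either gate.
Endothelial and macrophage markers, like Fabp4, were higher on average in the CD45- libraries of 67NR than of 66cl4 tumours. Endothelial markers were summed over 6 genes, 0 of them at 0 throughout a group, and gave 1060 to 4209 for 67NR and 521 to 1038 for 66cl4 CD45- libraries. Macrophage markers, summed over 8 genes with 0 at 0 throughout a group, gave 1251 to 4427 for 67NR and 157 to 1901 for 66cl4 CD45- libraries. The mean sum was 3.18 times higher for 67NR with endothelial and 3.12 times higher with macrophage markers, where Fabp4 was 19.5 times higher. The single endothelial markers spread, at 13.8 (Kdr), 11.3 (Egfl7), 10.4 (Pecam1), 9.44 (Tek), 4.28 (Emcn) and 1.60 (Cdh5) times higher. The 8 macrophage markers ran from 2.01 (Cd68) to 5.73 (Adgre1) times higher. Among 67NR CD45- libraries animal 4 was highest and animal 7 lowest in Fabp4 and in both sums. Among 66cl4 CD45- libraries Fabp4 was highest in animal 4, but the macrophage sum in animal 5 (1901) and the endothelial sum in animal 7 (1038). In 67NR tumours the mean Fabp4 level of CD45- cells was 517% of that of CD45+ cells. Endothelial markers there stood at 158% and macrophage markers at 2.54% of their CD45+ level. The single endothelial markers disagreed in 67NR CD45- cells, at 1099% (Emcn), 1034% (Tek), 835% (Egfl7), 772% (Cdh5), 94.3% (Kdr) and 72.4% (Pecam1). Adipocyte markers summed to 6.0 to 14.9 there and to 1.06 to 5.99 in 66cl4, with Lep and Cidec at 0 in every CD45- library. The part of these cells in the Fabp4 difference was not tested.
In CD45+ cells Fabp4 was 33.4, 31.5, 36.6, 35.8 and 15.2 in 66cl4 and 142, 103, 69.1, 33.6 and 52.5 in 67NR tumours. The 67NR library of animal 6 lay within the 66cl4 range. The difference was called (log2 fold change −1.39, SE 0.40, adjusted p = 0.0258, edgeR), but not without the 66cl4 library of animal 7 (adjusted p = 0.0523), the 67NR library of animal 1 (0.0535) or 4 (0.0621), or both 66cl4 animals with contradictory labels (0.0650). Between gates, Fabp4 was 2.61 to 9.59 times higher in the CD45- library of all 5 animals with 67NR tumours (log2 fold change −2.38, adjusted p = 0.000816, edgeR). In 66cl4 tumours it was higher in CD45+ cells in 3 of 5 animals, and the difference did not pass the test (0.44, 95% interval −0.43 to 1.32, adjusted p = 0.336). The interaction was 2.83 (SE 0.65, adjusted p = 0.00177, edgeR). In CD45+ libraries, fibroblast markers summed to 862 to 3686 for 67NR and 166 to 1389 for 66cl4 tumours. Endothelial markers there summed to 1040 to 2212 and 670 to 1715. Among 67NR CD45+ libraries the fibroblast sum was highest in animal 4 and lowest in animal 7, and Fabp4 was highest in animal 1 and lowest in animal 6. The part of such cells in the CD45+ difference of Fabp4 was not tested.
Fabp5 (ENSMUSG00000027533), the epidermal form, also found in macrophages and carcinoma cells, was higher in 66cl4 CD45- cells. Its level there was 374, 591, 526, 589 and 608, against 320, 203, 231, 150.0 and 238 in 67NR CD45- cells. The lowest 66cl4 library stood above the highest 67NR library, and the log2 fold change was 1.27 (SE 0.19, adjusted p = 4.09e-05, edgeR). CD45+ libraries held 276 to 695 for 66cl4 and 267 to 453 for 67NR tumours, with no difference past the test (0.25, 95% interval −0.29 to 0.78, adjusted p = 0.514). Its gate differences were not called in either tumour, at −0.40 in 66cl4 (adjusted p = 0.131) and 0.63 in 67NR (adjusted p = 0.0239, edgeR). The interaction passed (−1.01, SE 0.33, adjusted p = 0.0182, edgeR), with a sign opposite to that of the other 4 members called. A near copy, Fabp5l2, is annotated in the mouse, so part of the reads of Fabp5 could have been assigned to it.

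Plin2 (ENSMUSG00000028494), the lipid droplet coat protein, had the highest level per length of all 9 members in all 4 groups. The length used was the median of the annotated transcripts of each gene. Plin2 stood higher in 66cl4 than in 67NR tumours in both gates, 1.93-fold in CD45+ and 2.05-fold in CD45- cells (edgeR). In CD45+ cells its level was 4791, 3200, 6298, 5169 and 3462 in 66cl4 and 2900.0, 2315, 1715, 3032 and 1964 in 67NR tumours. The groups did not overlap, but the log2 fold change of 0.95 (SE 0.22, adjusted p = 0.00921, edgeR) fell just short of the fold threshold. It passed at 1.02 to 1.05 without the 66cl4 library of animal 4 or 7 or the 67NR library of animal 1 or 6.
In CD45- cells Plin2 was 1729, 1668, 1344, 1914 and 1405 in 66cl4 and 777, 777, 726, 1104 and 647 in 67NR tumours, again apart. The log2 fold change was 1.03 (SE 0.14, adjusted p = 1.79e-05, edgeR), and it fell below the fold threshold, to 0.969 to 0.995, without the 66cl4 library of animal 6 or the 67NR library of animal 5 or 7. The interaction was −0.07 (95% interval −0.63 to 0.49, adjusted p = 0.857, edgeR). CD45+ cells held more Plin2 in 5 of 5 animals of each line, 1.92-fold to 4.68-fold in 66cl4 and 2.36-fold to 3.73-fold in 67NR tumours. Both gate differences were called, at 1.47 and 1.56 (adjusted p = 1.08e-05 and 2.21e-05, edgeR).

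Levels were compared between genes as TPM, which divides counts by transcript length and scales each library to one total. The length was the median over all annotated transcripts of a gene, whichever of them the cells express. The order of the genes below depends on these lengths, and other lengths were not tried. In 66cl4 CD45+ cells Plin2 stood at 350 ± 76.6 TPM (SD, n = 5), followed by Lipa at 52.7 ± 5.28, Abca1 at 48.1 ± 12.6 and Abcg1 at 42.7 ± 10.0, whose ranges overlapped. Fabp4 was last at 0.643 ± 0.166 TPM. In 67NR CD45+ cells Plin2 (187 ± 45.6 TPM) and Lipa (59.6 ± 9.47) also led, but Abca1, at 15.5 ± 5.89 TPM, stood behind Abcg1 (32.7 ± 6.47), Lpl (27.8 ± 13.4) and Pparg (27.2 ± 11.0). In 67NR CD45- cells Abca1 at 10.9 ± 3.80 TPM and Fabp4 at 9.26 ± 5.00 TPM came next after Plin2 and Lipa, with overlapping ranges. In 66cl4 CD45- cells Plin2 (132 ± 14.5 TPM), Fabp5 (14.7 ± 2.56), Lipa (13.3 ± 1.56) and Lpl (2.12 ± 0.437) were the members above 1 TPM on average. Abca1, Abcg1, Nr1h3, Fabp4 and Pparg lay between 0.254 and 0.785 TPM.
The order of the 4 groups was not the same for all members. For Abca1 it was 66cl4 CD45+, then 67NR CD45+ and 67NR CD45- cells, which overlapped, and then 66cl4 CD45- cells. Pparg had 67NR CD45+ cells first, and each of its groups was apart from the next in the order. For Fabp4, Fabp5 and Nr1h3 every group overlapped its neighbour in the order, although groups farther apart did not always overlap.

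The genes whose profile lay nearest to each member were found by the root mean square difference of log2(normalised count + 1), centred per gene, over the 20 libraries and 16452 other genes. Abca1 lay nearest to Pid1 (0.54) and Pde4b (0.55), where the median over all genes was 2.43. For Abcg1 the nearest were Cd93 (0.42) and Irak3 (0.44), with a median of 2.60, and for Pparg Slc46a3 (0.56) and Cables1 (0.57), with a median of 2.57. Lipa lay nearest to Abhd12 (0.18) and to Ctsb (0.21), which encodes the lysosomal protease cathepsin B, and the median there was 1.23. Lpl was nearest to Efhd2 (0.40) and Grk2 (0.43), Plin2 to Tmem38b (0.27) and Cnnm4 (0.27), and Nr1h3 to Coro1b (0.27) and Gm8909 (0.29). Fabp4 had the most distant neighbours, Fbxo2 (0.58) and 4930502E18Rik (0.62), and Fabp5 lay nearest to Trmt11 (0.28) and Rnft1 (0.28). No other member was among the nearest 2 of any member.

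A list of 81 further lipid genes in 8 roles put the members beside their pathway. In CD45+ cells 67 were tested, and 10 (14.9%) were called higher and 5 (7.46%) lower in 66cl4, where 5.01% and 6.82% of all tested genes were. Of 7 receptors for lipoproteins and fatty acids, 3 were called higher, among them the oxidised lipoprotein receptor Olr1 (log2 fold change 3.27) and the fatty acid receptor Cd36 (2.51). Of 9 lipid droplet genes 3 were called higher, among them Hilpda (1.76), an inhibitor of lipolysis, and Dgat1 (1.48), which makes triglyceride. Of 5 lipase partners 2 were lower, the endothelial lipase Lipg (−3.43) and the LPL inhibitor Angptl4 (−2.15), and 1 was higher, the hepatic lipase Lipc (1.49), which was named after its value was seen. The LXR group gave 2 higher, with Scd1 at 1.99, and 1 lower, Apoe at −1.34, of 11. The 15 cholesterol synthesis genes tested had a median log2 fold change of −0.28, where that of all tested genes was 0.01.
In CD45- cells 65 were tested, with 14 (21.5%) higher and 9 (13.8%) lower in 66cl4, where 13.2% and 18.9% of all tested genes were called, so the share called lower was below that of all genes. Unlike Abca1 and Abcg1, 6 of 11 LXR partners and targets were higher, led by Scd1 (log2 fold change 2.54), which desaturates fatty acids, and 1 was lower, Apoe (−2.23). Cd36 (−3.22), Gpihbp1 (−3.71), which holds lipoprotein lipase on capillaries, Angptl4 (−2.84) and Mgll (−3.34), a monoglyceride lipase, were lower there, as Lpl, Fabp4 and Pparg were. Cebpa, a partner of Pparg in adipocytes, was lower too (−2.55). Vldlr, which takes up triglyceride-rich lipoproteins, was higher (3.79), and 3 of 15 synthesis genes were higher, with Idi1 at 2.15 and Cyp51 at 1.51. The adjusted p of these named genes was at most 0.0471 in CD45+ and 0.0117 in CD45- cells (edgeR).

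**Figure D5:**
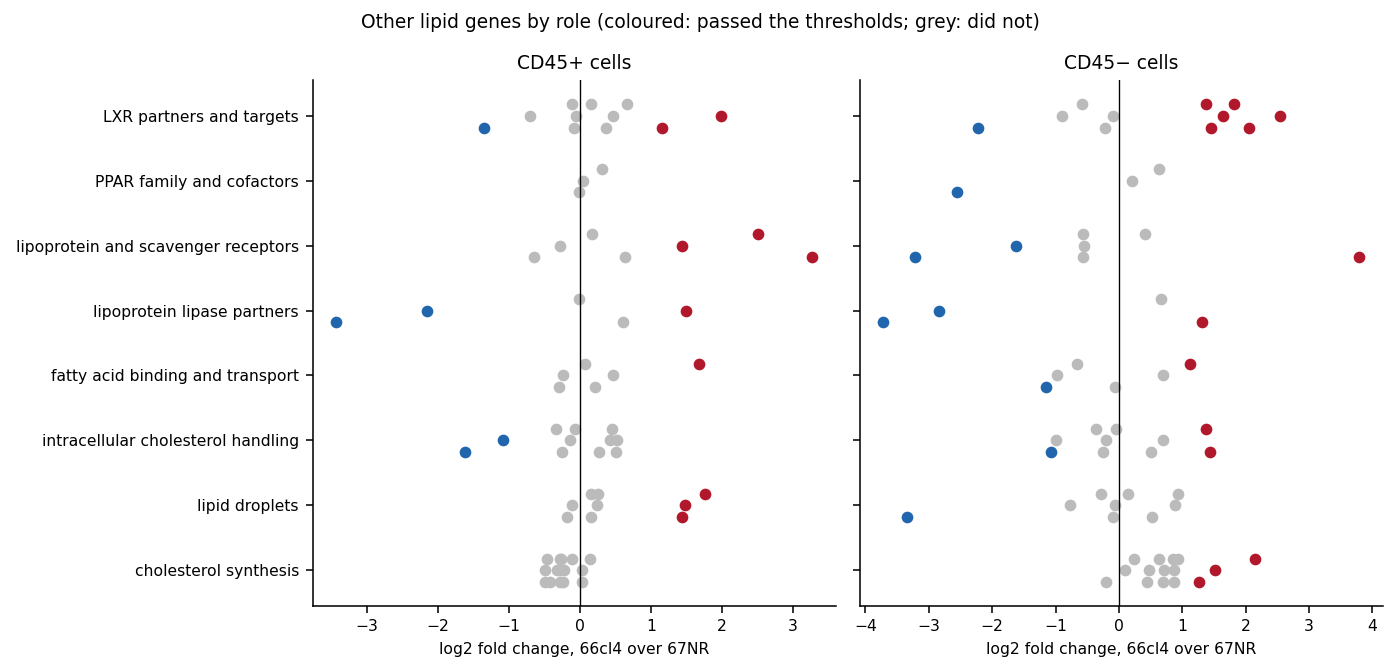
log2 fold change of 66cl4 over 67NR for the tested genes of the 81-gene lipid list, by role (rows), in CD45+ cells (left) and CD45- cells (right); each point is 1 gene, red points were called higher and blue points lower in 66cl4, and grey points were not called. Receptors and lipid droplet genes have 3 red points each in CD45+ cells, and LXR partners and targets have 6 red points in CD45- cells.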

How the data were processed

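RNA of sorted CD45+ and CD45- cells was sequenced as single reads. The authors trimmed reads, ran Salmon 1.3.0 for transcripts, combined transcripts per gene in tximport, and deposited these estimated counts unnormalised. The reference named is human (GRCh38), whereas identifiers are mouse, and the mouse build is not given in the sources used here. Symbols were matched for 51492 of 52783 identifiers. Reads of similar genes can be divided between them, and 15.1% to 18.0% of values per library were not whole. Counts were rounded.
Groups were compared with edgeR 4.0.16 in R 4.3.3 (quasi-likelihood test, robust, TMM, filterByExpr with a minimum count of 10 and total of 15, Benjamini-Hochberg adjustment), fitting the groups compared, or all 20 libraries for the interaction. Called genes changed by over 1 on the log2 scale at an adjusted p under 0.05 (interaction: adjusted p alone). Normalised counts used DESeq2 1.42.0 size factors, and TPM used median transcript lengths of the reference. At this depth 3 counts are 1.07e-05% to 2.31e-05% of a library (counting error only). Replicates are separate mice, and no 2 libraries were alike within sampling noise. Tests were tried on simulated counts. Figures were drawn with matplotlib 3.10.9.
The members, the lipid and marker lists and the tests were chosen with earlier results of these data known. Named from the lipid list were, per role and comparison, at most the 2 called genes of largest change with a mean of at least 10 counts. The nearest 2 genes were named for each member. The promoter search with 3 mismatches was added after the sequences were seen. The 2 gates of an animal are paired by design (correlation of deviations 0.0245 to 0.124 in 66cl4 and −0.00142 to 0.303 in 67NR). Between tumours only a number is shared. Alternatives were DESeq2's test, RLE factors, no filter, a filter at 10 counts in at least 5 libraries, a joint fit, a replicate block, leaving out 66cl4 animals 5 and 6, leaving out each library, and CPM and TPM for levels.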

Additional observations from a re-analysis of the deposited data

Results flagged for a closer look

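In 8 of the 36 sets of 5 libraries (9 genes in 4 groups), 1 library lay farther from its nearest neighbour than Dixon's limit allows. Chance gives about 1.8 for normal values in independent sets. Here counts were not logged and the 9 genes of a group share libraries, so no excess over chance can be read from this. In 66cl4 CD45- cells the flagged values were Abca1 in animal 5 (165 normalised counts), Lpl in animal 7 (118) and Lipa in animal 7 (577). These 2 animals had the highest macrophage marker sums of that group, 1901 and 856. In animal 5, with the higher sum, Lpl (80.7) and Lipa (483) were not flagged. Animal 7 also had the highest fibroblast (13726) and endothelial (1038) marker sums of the group. Among 66cl4 CD45+ cells the flagged values were Abcg1 in animal 6 (607), Fabp5 in animal 6 (695) and Fabp4 in animal 7 (15.2). In 67NR CD45- cells they were Lipa in animal 4 (810), the library with the highest macrophage marker sum there (4427), and Plin2 in animal 6 (1104). The part of these cells in the values was not tested.
The difference between 66cl4 and 67NR tumours itself differed between the gates, by the interaction test of edgeR, for 5 members. The log2 difference, CD45+ minus CD45- cells, was 5.48 for Abca1, 3.68 for Abcg1, 2.83 for Fabp4 and 2.36 for Pparg, and −1.01 for Fabp5. For Abca1 the tumour difference had opposite signs in the 2 gates and was called in both. For Abcg1 it was called only in CD45- cells. For Fabp4 and Pparg it was negative, and for Fabp5 positive, in both gates.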

How the results depend on the processing

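Of the tested log2 fold changes of the members under the other settings, 290 kept their direction and side of the threshold, 2 reversed, 2 passed it newly and 3 no longer passed. With 1 library left out, 518 kept both, 2 reversed, 8 passed newly and 12 no longer passed. In CD45+ cells the replicate block, a number shared only in name between tumours, gave 2 members higher in 66cl4 (Plin2 gained, 1.01, adjusted p = 0.0268) and 1 lower (Fabp4 lost, −1.06, adjusted p = 0.105). In CD45- cells it gave Nr1h3 as lower (−1.08, adjusted p = 0.0146). Between the gates of one animal, where the block is a true pairing, it changed no call of a member other than that of Nr1h3 in 67NR tumours (0.998). Without 66cl4 animals 5 and 6 there was 1 member lower in CD45+ cells (Fabp4 lost, −1.59), Fabp5 turned to −0.0073 there, and Fabp4 turned to −0.14 between the gates of 66cl4 tumours. Fabp5 also turned to −0.012 in CD45+ cells without the 66cl4 library of animal 6 (range 0.37 at most), and the interaction of Plin2 to 0.029 without the 67NR CD45+ library of animal 6 (range −0.31 at least). None of these 4 values passed a test before or after the turn. Leaving out 1 library gave 1 to 2 members higher and 1 to 2 lower in CD45+ cells, and 1 to 2 higher and 4 to 6 lower in CD45- cells. Between gates it gave 7 higher and 0 lower in 66cl4, and 5 to 6 higher and 1 lower in 67NR tumours. The interaction gave 4 to 5 higher and 1 lower. The causes were not tested. Depth limits Pparg, Abcg1 and Fabp4 in 66cl4 CD45- cells most, where libraries held 2 to 7, 4 to 18 and 7 to 64 estimated counts.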

Other observations

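Beyond the members, cholesterol synthesis, the mevalonate pathway that SREBP2 controls, had 10 of 15 tested genes with a lower 66cl4 over 67NR difference in CD45+ than in CD45- cells and 0 with a higher one, where 21.2% and 21.9% of all genes were called (interaction, edgeR). Idi1 had a log2 difference of −2.60 and Cyp51 of −1.79. Among the lipoprotein and scavenger receptors 4 of 8 were called, all higher, with Cd36 at 5.75 and Olr1 at 3.66. LXR partners and targets had 1 higher and 5 lower of 11, with Pltp, which transfers phospholipid between lipoproteins, at −2.53 and Mylip, which marks the LDL receptor for degradation, at −1.17. The lipases around Lpl split, with Lipg at −4.75 and Lipc at 3.30.
Between gates, CD45+ cells of both tumours held more Apoe (log2 fold change 6.05 in 66cl4 and 5.17 in 67NR), more Msr1, a scavenger receptor of macrophages (7.60 and 5.61), more Cyp27a1 (7.24 and 5.50) and more Ch25h (5.37 and 4.53), the last 2 of which make oxysterols, the ligands of LXR. Intracellular cholesterol handling had 6 of 11 genes called higher in CD45+ cells of 66cl4 and 7 of 11 in those of 67NR tumours, where 23.9% and 20.2% of all tested genes were, and 1 lower in each. Of 15 cholesterol synthesis genes 3 were called lower in CD45+ cells of 66cl4 tumours, with Insig2 at −1.43 and Dhcr7 at −1.34, and 3 higher in those of 67NR tumours, with Idi1 at 1.98 and Cyp51 at 1.35. Of all tested genes, 20.5% and 20.2% were called in those directions, close to 3 of 15. CD45+ libraries hold macrophage marker sums of 49457 to 117539 against 157 to 4427 in CD45- libraries, and their part in these differences was not tested.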
